A study of Mus musculus with 20 samples.

Results

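The genes described here were annotated transcripts of the biotype TEC, a provisional class for loci with RNA evidence whose gene structure still awaits an experiment. They were chosen by their level: the TEC genes of the GENCODE M21 annotation with a mean of at least 50 counts over the 20 libraries of the gene count table. The rule kept 249 of 3214 TEC genes in a table of 55471 genes, or 7.75% of them, while 1297 TEC genes had no count in any library. All 249 could be tested. They were 617 to 30942 bases long with a median of 2905 bases, and 247 consisted of a single exon. On the GRCm38 assembly, 166 lay within an intron of a protein-coding gene on the same strand and 6 within an intron on the opposite strand. Another 15 were head to head with a protein-coding gene, which means that their start lay within 1000 bases of its start, on the opposite strand and pointing away from it. The others comprised 12 that overlapped exons of an opposite-strand coding gene, 11 that overlapped exons of a coding gene on the same strand, 12 that began within 5000 bases after the end of a coding gene on the same strand, and 27 with none of these relations.

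The libraries were made from total RNA of SIMS cells, a line from mouse salivary gland, edited with CRISPR/Cas9. There were 5 groups of 4 libraries: the wild type line, a line with a knockout (KO) of Btbd7 that the series uses as a negative control, and 3 clones with a knockout of Zcchc8, called clones 1, 2 and 3. Each edited line thus represents 1 line or clone. No label says whether the 4 libraries of a line came from separate cultures, so the p-values measure the spread between these libraries, which may be technical.

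The protein Zcchc8 forms the core of NEXT, the nuclear exosome targeting complex, in which it holds the RNA-binding protein Rbm7 and the RNA helicase Mtrex. The complex hands short, unspliced nuclear RNAs to the RNA exosome, a multisubunit nuclease that degrades RNA from its 3′ end. Its known substrates include promoter upstream transcripts (PROMPTs), which arise because many mammalian promoters start transcription in both directions, and pieces of introns.

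Sequences help to picture these loci. At most head-to-head loci a GC-rich region lies before the start of the coding partner: the 12 windows that could be read ran from 50.4% to 81.2% GC, with Eaf2 (50.4%) and Ergic2 (50.8%) below the median of all RefSeq windows. The next windows are the 250 bases before the RefSeq start of each of 4 partners, on GRCm38.p6 and written 5′ to 3′ on the strand of the partner, which is the minus strand in all of them. They were chosen because their TEC genes reach into the window and stand high in the Zcchc8 KO below; the first 3 are head to head, and Gm37174 lies in an intron of Insig2 on the opposite strand. Capitals mark the bases that belong to the TEC gene on the opposite (plus) strand, so the boundary between capitals and lower case is the annotated start of the TEC gene. The capital letters matched the reverse complement of the start of the GENCODE transcript in every window printed.
Gm32699 and Rala, chr13:17944218-17944467, minus strand: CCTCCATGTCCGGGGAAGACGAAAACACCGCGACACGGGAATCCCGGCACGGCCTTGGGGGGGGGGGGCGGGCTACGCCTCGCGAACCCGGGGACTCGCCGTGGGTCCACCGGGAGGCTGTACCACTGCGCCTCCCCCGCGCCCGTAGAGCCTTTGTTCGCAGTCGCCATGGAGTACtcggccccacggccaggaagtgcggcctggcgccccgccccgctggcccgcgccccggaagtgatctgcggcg
4933417C20Rik and Cacybp, chr1:160212893-160213142, minus strand: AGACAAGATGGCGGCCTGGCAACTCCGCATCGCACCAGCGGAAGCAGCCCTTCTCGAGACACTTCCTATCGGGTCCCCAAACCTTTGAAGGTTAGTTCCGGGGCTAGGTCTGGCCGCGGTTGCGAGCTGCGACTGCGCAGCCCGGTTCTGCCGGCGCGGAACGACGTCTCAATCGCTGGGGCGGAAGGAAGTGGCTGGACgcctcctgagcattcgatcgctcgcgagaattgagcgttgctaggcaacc
Gm44064 and Cnbp, chr6:87851107-87851356, minus strand: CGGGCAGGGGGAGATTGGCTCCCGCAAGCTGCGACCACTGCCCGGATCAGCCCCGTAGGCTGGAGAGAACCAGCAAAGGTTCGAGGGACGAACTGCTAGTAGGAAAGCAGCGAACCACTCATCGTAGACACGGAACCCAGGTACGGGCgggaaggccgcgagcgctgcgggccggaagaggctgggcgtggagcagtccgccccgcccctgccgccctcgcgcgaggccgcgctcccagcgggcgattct
Gm37174 and Insig2, chr1:121328025-121328274, minus strand: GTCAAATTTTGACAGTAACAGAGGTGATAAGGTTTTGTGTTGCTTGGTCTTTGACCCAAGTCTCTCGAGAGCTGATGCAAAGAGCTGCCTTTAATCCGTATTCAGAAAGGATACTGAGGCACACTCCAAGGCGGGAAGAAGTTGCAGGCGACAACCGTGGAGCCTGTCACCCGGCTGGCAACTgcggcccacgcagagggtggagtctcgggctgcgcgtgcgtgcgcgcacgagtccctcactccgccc
The TEC bases in these windows numbered 177 at Rala, 200 at Cacybp, 148 at Cnbp and 183 at Insig2. GC content was 73.6% at Rala, 62.8% at Cacybp, 69.2% at Cnbp and 56.8% at Insig2, against a median of 52.4% over all 32851 RefSeq windows of the same length.

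The contrast with TEC genes inside introns is visible in the first 120 bases of the transcripts themselves, shown on the strand of the TEC gene from the GENCODE M21 transcripts, with every CG pair in capitals. The first pair are head to head with Zfp143 and Kbtbd2, and the others are intronic members with high levels.
AA474408, chr7:110061206-110061325, minus strand: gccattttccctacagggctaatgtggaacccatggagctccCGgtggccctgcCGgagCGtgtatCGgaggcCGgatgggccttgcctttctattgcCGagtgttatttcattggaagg
Gm10209, chr6:56797591-56797710, plus strand: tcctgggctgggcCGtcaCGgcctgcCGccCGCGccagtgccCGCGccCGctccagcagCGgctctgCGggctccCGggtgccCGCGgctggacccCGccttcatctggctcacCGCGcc
A930004J17Rik, chr4:131878628-131878747, plus strand: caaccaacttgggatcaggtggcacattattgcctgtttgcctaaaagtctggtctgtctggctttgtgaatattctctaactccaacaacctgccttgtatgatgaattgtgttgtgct
Gm47585, chr13:63273600-63273719, plus strand: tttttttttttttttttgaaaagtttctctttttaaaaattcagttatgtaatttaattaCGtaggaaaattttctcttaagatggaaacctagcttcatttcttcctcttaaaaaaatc
The stretch held 6 CG pairs at AA474408 and 16 at Gm10209, and GC content was 57.5% and 80%. Of the intronic starts, A930004J17Rik held 0 and Gm47585 held 1, and GC content was 43.3% and 21.7%.

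**Figure D1:**
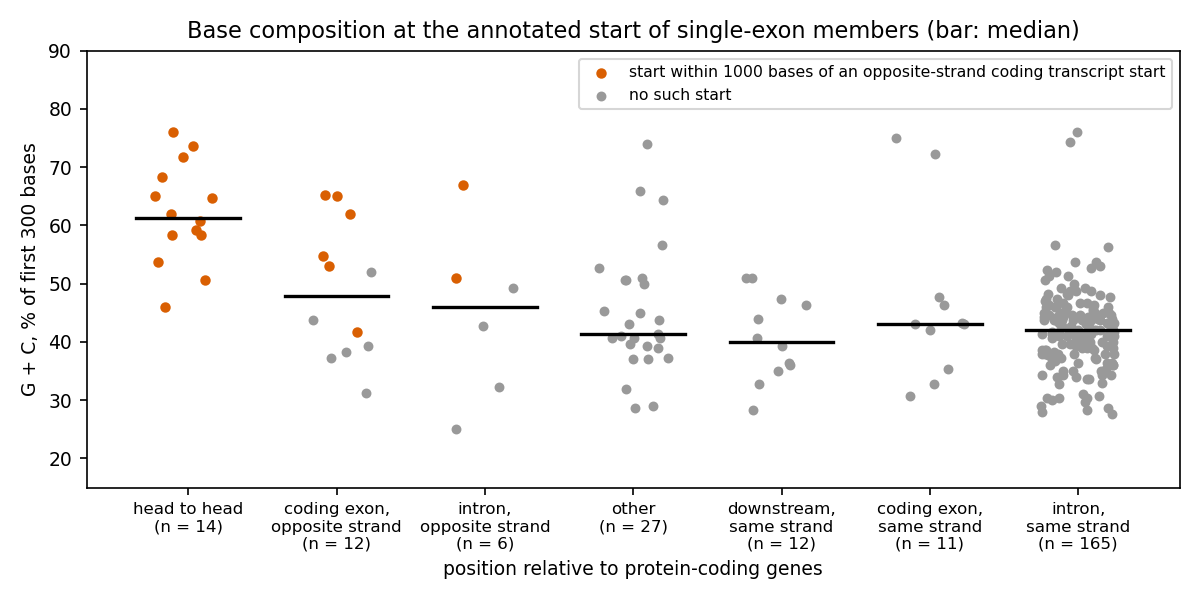
GC content (percent, vertical axis) of the first 300 transcript bases of each member, by position class on the horizontal axis; each point is 1 member of a single exon, bars are medians, and orange marks a start within 1000 bases of an opposite-strand coding transcript start. The head-to-head members sit between 46% and 76% with a median of 61.3%, and the intronic same-strand members spread from 27.7% to 76% around a median of 42%.

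Over the first 300 bases of members of at least 1000 bases, the median GC content was 61.3% in head-to-head members and 41.7% in same-strand intronic members. All head-to-head TEC genes of the annotation, whatever their level, had a median of 58.3%, and all same-strand intronic TEC genes 40.7%. The polyadenylation signal AATAAA, searched as those letters on the strand of the gene, occurred in the first 1000 bases of 39.5% of the 243 members of that length and of 48.9% of the 2467 TEC genes of that length. The letters GGTAAG, a strong 5′ splice site, occurred there in 16.9% of members and 15% of TEC genes, and TATAAA in 33.3% and 39.4%. In the last 50 bases of the transcript, AATAAA occurred in 18.6% of members and 21.9% of all TEC genes. In the 250 bases before the 18 partner starts that could be read, on either strand, neither AATAAA nor TATAAA occurred, against 18.1% and 12.4% of all RefSeq windows. AATAAA and TATAAA can share letters with each other, and a match describes the letters only.

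Library totals ran from 6833258 to 17771804 counts. Wild type replicate 1 stood apart: it detected 14245 genes and the remaining wild type libraries detected 17442 to 18791, and results that rest on it are given without it. The line labels were checked on the targeted genes. Zcchc8 stood at 65.1 ± 2.92 CPM (counts scaled to a common library total; SD, n = 4) in wild type, 60.3 ± 4.28 in clone 1, 23.3 ± 1.35 in clone 2 and 54.6 ± 4.84 in clone 3, so its RNA was lower chiefly in clone 2, and an edit that shifts the reading frame need not lower the RNA. Btbd7 stood at 202 ± 7.64 CPM in wild type and 99.2 ± 3.23 in the Btbd7 KO. Of the keratins, Krt7, Krt8, Krt18, Krt19 and Krt14 averaged 898, 669, 792, 239 and 282 CPM, while Krt5 averaged 0.169. Of 13 tested salivary epithelial genes, 0 were higher and 5 lower in the Zcchc8 KO: Krt7 (-0.59), Krt8 (-0.38), Krt18 (-0.46), Krt14 (-0.52) and Aqp5 (-0.42, log2 fold changes). Over all genes tested, 16.2% were higher and 19.9% lower. The 14 listed epithelial genes summed to 4082–5958 CPM in wild type, 5127–5301 in the Btbd7 KO, 3866–4626 in clone 1, 4242–4792 in clone 2 and 3672–4221 in clone 3. The endothelial markers Pecam1, Cdh5 and Kdr summed to at most 1.15 CPM in any library. The 6 fibroblast genes summed to 11.4–18.5 CPM in wild type, 22.5–35.2 in the Btbd7 KO, 10.2–14.2 in clone 1, 24.4–28.2 in clone 2 and 22.2–26.3 in clone 3, with Lum at 0 everywhere. Of the 3 fibroblast genes tested, Col1a1 was higher (0.67) and Col3a1 lower (-3.85) in the Zcchc8 KO, and Col1a2 was not called (0.58). The 4 immune genes summed to 4.52–6.19 CPM in wild type, 5.44–6.59 in the Btbd7 KO, 8.07–13.4 in clone 1, 9.26–11.1 in clone 2 and 4.09–6.76 in clone 3. Nearly all of it was Cd68, which was higher in the Zcchc8 KO (0.58). The part of these lists in the changes below was not tested.

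The members together took up 0.197% of gene counts in wild type. Their summed level was 2033 ± 145 CPM (SD, n = 4) in wild type, 1792 ± 109 in the Btbd7 KO, 2536 ± 113 in clone 1, 2486 ± 153 in clone 2 and 2684 ± 226 in clone 3. Every Zcchc8 KO library was above every wild type library in this sum, which includes members that the choice by level favours in the knockouts, as set out next. These are bulk libraries, in which more cells that make a transcript and more of it per cell cannot be told apart.

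Because 12 of the 20 columns that set the mean are Zcchc8 KO libraries, the rule itself favours TEC genes that are high there. The members were therefore split by their mean over the 8 control libraries (wild type and Btbd7 KO). The minimum of 50 counts was met in the controls by 219 members, and 30 reached it only with the Zcchc8 KO libraries. The 30 had to be higher in the knockouts, and their single values against the controls are given below as a description, without a test. Only the comparison among the 3 clones is tested for them. The clones do not enter the mean of raw counts equally. Library totals reached 7683444 counts in clone 1, 16994115 in clone 2 and 14593557 in clone 3, so the rule favours genes high in clones 2 and 3. Summed over the 219 alone, the level was 1830–2122 CPM in wild type, 1643–1878 in the Btbd7 KO and 2110–2681 in the Zcchc8 KO, so wild type and Zcchc8 KO libraries overlapped.

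Among the 219, most TEC genes were near their wild type level without Zcchc8. In the mean of the 3 clones against wild type, 31 of the 219 were higher (14.2%) and 10 lower (4.57%) by edgeR's quasi-likelihood test at an adjusted p under 0.05. Over all 15297 genes tested, the shares were 16.2% and 19.9%. With every library in the fit, the share of higher calls was thus near the background and that of lower calls below it. The median log2 fold change was 0.08 over the 219 and -0.01 over all genes. Over all 249 members the counts were 59 higher and 10 lower with a median of 0.16, which includes the 30 that the rule selected through the knockout libraries. Single clones gave 24 higher and 10 lower of the 219 in clone 1, 29 and 8 in clone 2 and 29 and 3 in clone 3, where 16.7% and 19.1%, 16.1% and 16.2%, and 14% and 15.3% of all genes were called. In each of the 3 clones at the same time, 12 of the 219 were higher and 1 lower, against 7.64% and 5.82% of all genes. All 12 Zcchc8 KO libraries lay above all 4 wild type libraries in 7 of the 219, against 6.01% of all genes, and below them in 0, against 4.12%. The count of 10 lower members fell to 3 without wild type replicate 4 and to 6 without Btbd7 KO replicate 2. The higher count depended in part on wild type replicate 1. Without that library, more of the 219 gained a higher call than lost one, and the matching share over all genes is not given here. Over all 249 members, leaving out 1 library at a time gave 51 to 72 higher.

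**Figure D2:**
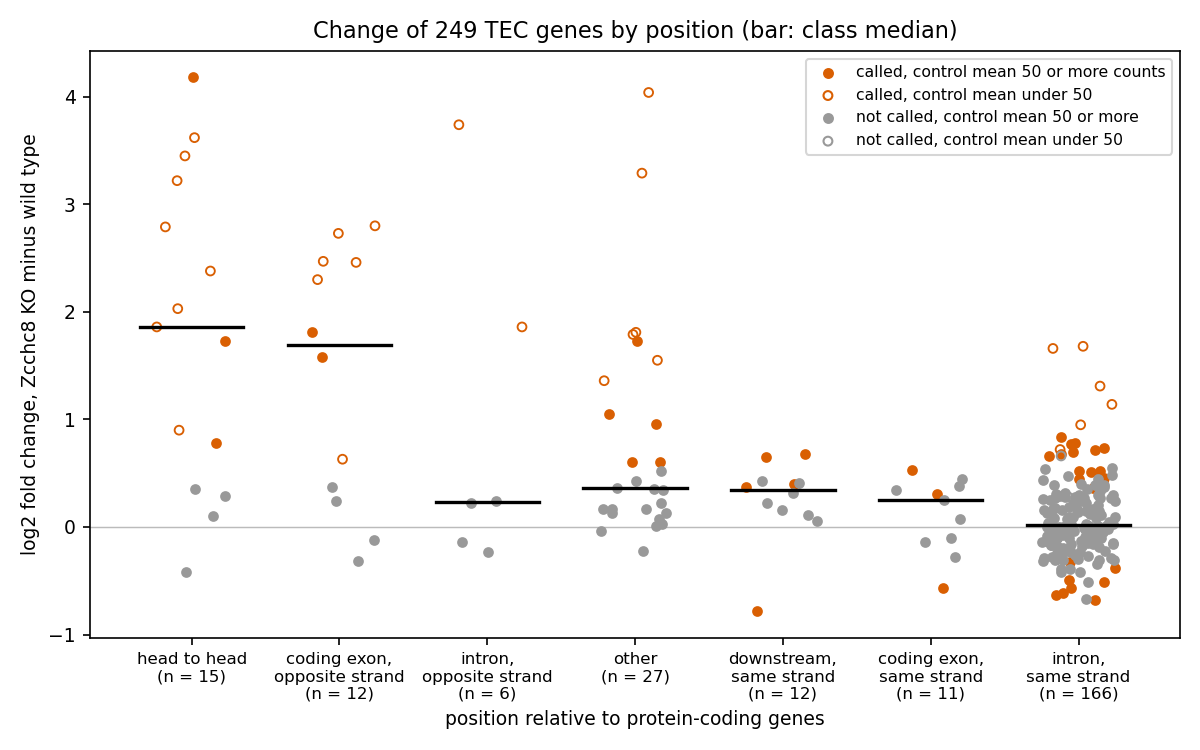
Log2 fold change of each member (vertical axis, Zcchc8 KO mean of 3 clones minus wild type) by position class; orange points passed the test, grey points did not, open points are members that reach 50 counts only with the Zcchc8 KO libraries, and bars are class medians. Head-to-head members have a median of 1.86 and same-strand intronic members a median of 0.02.

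The counts by position class follow, where 16.2% of all genes tested were higher and 19.9% lower. Of the members that met the minimum in the controls, 3 of 7 head-to-head members were higher with a median log2 fold change of 0.35, and 2 of 6 that overlapped opposite-strand exons were higher with a median of 0.31. Of 158 within introns of the same strand, 15 were higher and 8 lower with a median of 0.00. With the members that the rule selected through the knockouts, 11 of 15 head-to-head members were higher with a median of 1.86, and 21 of 166 same-strand intronic members were higher with a median of 0.02. The members so added had to be higher, so these larger counts cannot be set against the share over all genes. No test was made of the difference between the position classes.

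**Figure D3:**
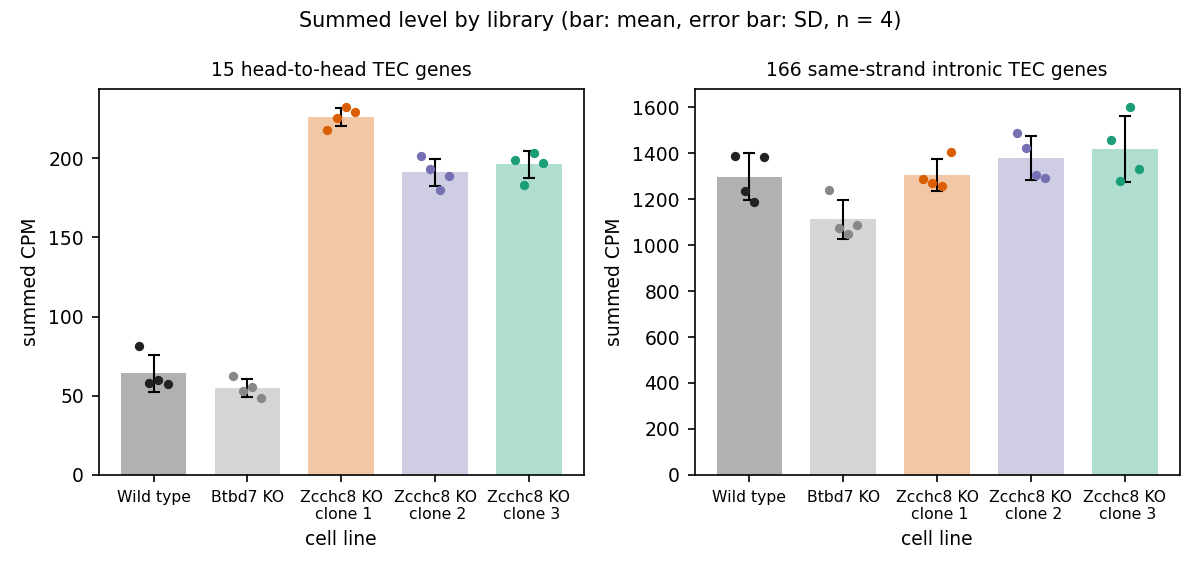
Summed level (CPM, vertical axis from 0) of the head-to-head members on the left and of the same-strand intronic members on the right, by cell line; points are libraries, bars means and error bars SD (n = 4). The 15 head-to-head members sum to 57.4–81.4 CPM in wild type and to 180–232 CPM in the Zcchc8 KO libraries, while the 166 same-strand intronic members sum to 1186–1388 and 1256–1599 CPM, which overlap; both sums include members that reach 50 counts only with the Zcchc8 KO libraries.

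Summed over the 15 head-to-head members, the level was 81.4, 57.9, 59.9 and 57.4 CPM in wild type replicates 1 to 4 and 48.7–62.3 CPM in the Btbd7 KO. It was 180–232 CPM in the 12 Zcchc8 KO libraries. Since 8 of the 15 were selected through these libraries, the sum over the other 7 is the fairer one: 67.5, 41.1, 44.6 and 42.2 CPM in wild type, 34.1–48.6 in the Btbd7 KO and 105–146 in the Zcchc8 KO, all above the controls. Most of that gap was 1 gene, AA474408, for the remaining 6 summed to 37–64.3 CPM in wild type and 52–69.8 CPM in the Zcchc8 KO, where wild type replicate 1 lay within the Zcchc8 KO range and the other 3 below it. The 166 same-strand intronic members, which make up most of the summed level, ran from 1186 to 1388 CPM in wild type, from 1050 to 1238 in the Btbd7 KO and from 1256 to 1599 in the Zcchc8 KO, so wild type and Zcchc8 KO libraries overlapped. The 158 that met the minimum in the controls ran from 1165 to 1360 CPM in wild type and from 1204 to 1541 in the Zcchc8 KO.

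The head-to-head member with the highest level was AA474408 (chr7:110057987-110061325, minus strand), which starts just inside the annotated start of Zfp143, a zinc finger transcription factor gene, on the other strand. It also overlaps the noncoding gene 1600010M07Rik on its own strand. AA474408 stood at 3.25, 4.05, 4.19 and 1.82 CPM in wild type and at 3.5, 4.25, 5.21 and 3.38 CPM in the Btbd7 KO. In the Zcchc8 KO it stood at 78.1, 71.1, 76.1 and 70.7 CPM in clone 1, at 55.1, 46.1, 48 and 50.8 CPM in clone 2, and at 60.5, 55, 58.8 and 60.6 CPM in clone 3. Every Zcchc8 KO library was far above every control library, and the 2 control lines overlapped. The log2 fold change was 4.18 ± 0.14 (SE, adjusted p = 5.77e-17), with 4.48 in clone 1, 3.91 in clone 2 and 4.15 in clone 3. The clones differed from each other (adjusted p = 0.002, 2 degrees of freedom), and the log2 fold change in the Btbd7 KO was 0.28 (adjusted p = 0.338). Zfp143 itself had a log2 fold change of -0.13 (adjusted p = 0.174).

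4732416N19Rik (chr6:148212253-148215731, plus strand) lies head to head with Ergic2, which encodes a protein of the transport between endoplasmic reticulum and Golgi. It stood at 5.66, 3.01, 4.64 and 4.22 CPM in wild type and 4.22, 3.05, 5.21 and 5.32 CPM in the Btbd7 KO, and at 11.5–17.8 CPM with a median of 14.5 in the Zcchc8 KO. No Zcchc8 KO library fell into the range of the controls, and the log2 fold change was 1.73 ± 0.17 (SE, adjusted p = 1.36e-08). A730091E23Rik, head to head with the GDP-mannose dehydratase gene Gmds, stood at 9.49, 3.53, 4.41 and 3.87 CPM in wild type and 6.03–12.8 CPM in the Zcchc8 KO. Wild type replicate 1 lay within the Zcchc8 KO range and the other wild type libraries below it, and the log2 fold change was 0.78 ± 0.23 (SE, adjusted p = 0.0106). It was 1.23 without wild type replicate 1, and 0.62 (adjusted p = 0.0504) without wild type replicate 2.

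The other 8 head-to-head members with higher levels reached 50 counts only with the knockout libraries and are described without a test. Gm32699 (chr13:17944291-17946278, plus strand) is the partner of the small GTPase gene Rala, shown in the first window above. It stood at 1.43, 2.2, 3.51 and 2.64 CPM in wild type, at 2.23, 1.26, 0.868 and 1.52 CPM in the Btbd7 KO and at 11.7–22.1 CPM in the Zcchc8 KO. Gm10209 (chr6:56797591-56799197, plus strand), at Kbtbd2, stood at 1.17, 0.174, 1.12 and 0.528 CPM in wild type and at 6.7–13.5 CPM with a median of 9.14 in the Zcchc8 KO. In both, all Zcchc8 KO libraries were above all controls. 1700001G17Rik (chr1:33669824-33670712, plus strand), at Prim2 for the large subunit of DNA primase, stood at 0, 1.16, 0.598 and 2.23 CPM in wild type and at 7.3–15.5 CPM in the Zcchc8 KO. Gm44064 (chr6:87851209-87852295, plus strand), at Cnbp for a zinc knuckle protein that binds nucleic acids, stood at 0, 1.56, 0 and 1.52 CPM in wild type and at 5.62–10.4 CPM in the Zcchc8 KO. In this pair the low wild type values rest on few counts, and no library of the knockouts reached down to them. 4933417C20Rik, at the calcyclin-binding protein gene Cacybp, stood at 6.24, 2.84, 1.5 and 2.64 CPM in wild type and at 10–18.1 CPM in the Zcchc8 KO. The remaining 3 were Gm43081 at Pigg, Gm45133 at the splicing factor gene U2af2 and Gm4430 at the phosphate transporter gene Slc20a1, with log2 fold changes of 2.38, 1.86 and 0.90. The libraries of Gm4430 overlapped between wild type and knockout, and those of the other 7 did not, a separation that the choice through the knockouts favours. Over all genes tested, 6.01% had every Zcchc8 KO library above every wild type library.

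**Figure D4:**
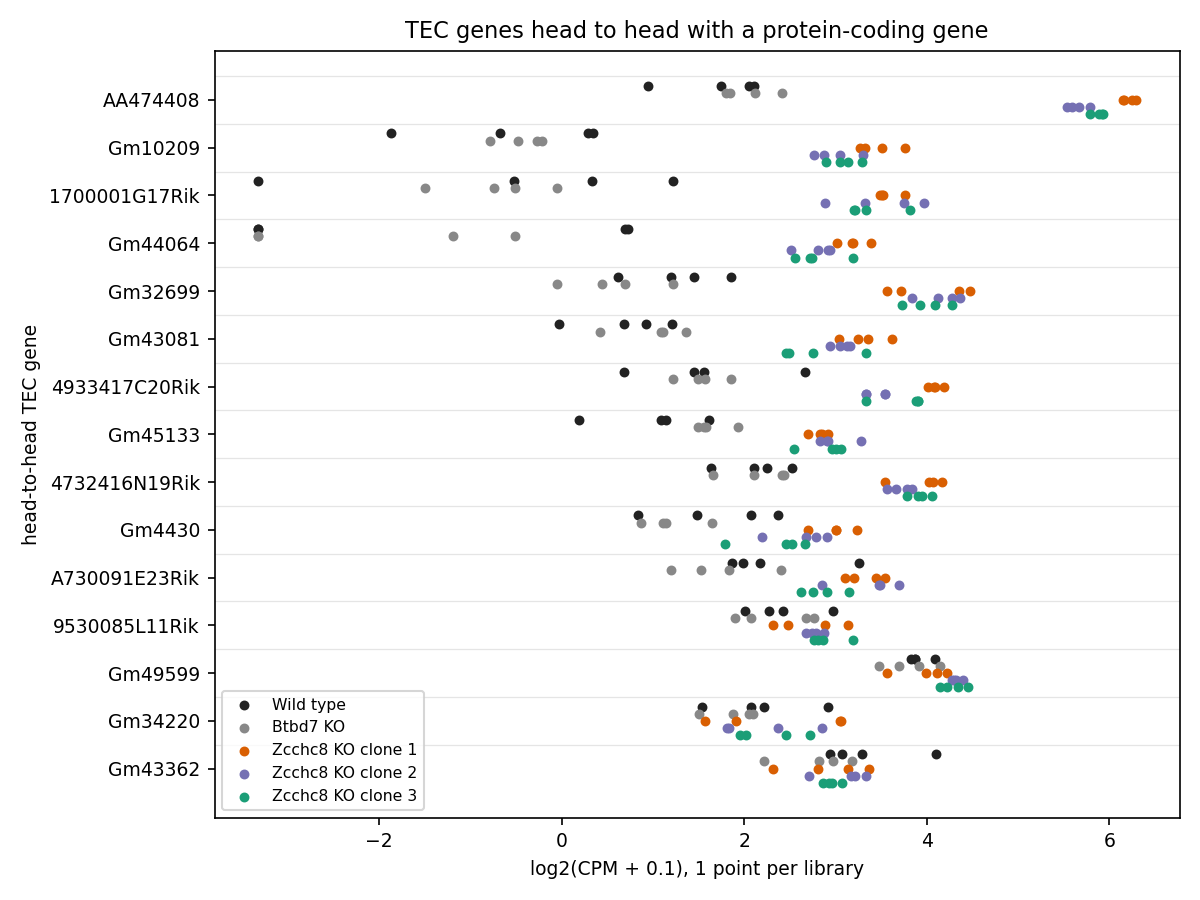
Level of each of the 15 head-to-head members in every library, as log2(CPM + 0.1) on the horizontal axis, ordered by log2 fold change and coloured by line; each point is 1 library. AA474408, at the top, lies between 1.82 and 4.19 CPM in wild type and between 46.1 and 78.1 CPM in the Zcchc8 KO libraries.

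The other 4 head-to-head members missed the threshold. Gm49599, between the starts of Eaf2 and Golgb1, stood at 16.9, 14.1, 14.5 and 14.5 CPM in wild type and 11.7–21.7 CPM in the Zcchc8 KO, with a log2 fold change of 0.29 (adjusted p = 0.0564). Without wild type replicate 1 that change was 0.37 (adjusted p = 0.014), and it also passed the threshold without Btbd7 KO replicate 1 or 4, clone 1 replicate 1 or clone 3 replicate 2 (0.29–0.34). Gm43362 at Lrrc40 stood at 17, 8.33, 7.55 and 9.68 CPM in wild type and 4.87–10.2 CPM in the Zcchc8 KO, with a log2 fold change of -0.42 (adjusted p = 0.0936). Here too wild type replicate 1 was the highest of all, and without wild type replicate 3 the change was -0.54 (adjusted p = 0.043). 9530085L11Rik at Tmco3 and Gm34220 at the transcription factor gene Yy1 had log2 fold changes of 0.35 (adjusted p = 0.167) and 0.10 (adjusted p = 0.813), and that of 9530085L11Rik was 0.59 (adjusted p = 0.0136) without wild type replicate 1. Gm49599, Gm43362 and 9530085L11Rik shared a feature found after their values were seen: a coding transcript on their own strand starts 0, 142 and 364 bases from their start (Golgb1, Srsf11 and Dcun1d2). None of the other 12 had such a start within 1000 bases. Of these 12, 8 had been selected through the knockouts, and of the 4 that met the minimum in the controls 3 were higher, too few to set against the 3.

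Did the coding partner change with the TEC gene? For the 15 head-to-head pairs the median log2 fold change of the partner was -0.13, with 1 partner higher and 6 lower. Over all genes tested, 16.2% were higher and 19.9% lower, and the lower share was larger among protein-coding genes with a mean of at least 50 counts. Whether these partners differ from other coding genes was not tested. Of the 7 pairs whose member met the minimum in the controls, the log2 ratio of member to partner was higher in the Zcchc8 KO in 2, by a two-sided exact permutation test over 12 against 4 libraries adjusted over all 221 members with a tested partner, with a median difference of 0.19. At Zfp143 the ratio was 4.37 higher (exact p = 0.0011, the smallest this design can give; adjusted p = 0.00837), at Ergic2 1.99 higher (adjusted p = 0.00837) and at Gmds 1.15 higher (adjusted p = 0.0644). Cacybp was lower, with a log2 fold change of -0.62 (adjusted p = 3.49e-09), and Rala had one of 0.01. Across the 15 pairs, which share libraries and depth, Pearson's r between the log2 fold changes of member and partner was -0.01.

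A separate count table of the study covers the promoter upstream (PROMPT) region of each gene, listed under that gene, in 19 libraries without wild type replicate 1. The table as used here has no coordinates, and at a head-to-head locus the region of the partner can hold the same reads as the TEC gene. Of the 15 regions of head-to-head partners, 12 were higher and 0 lower in the Zcchc8 KO, with a median log2 fold change of 1.75. Over all 17617 regions tested, 39.2% were higher and 3.85% lower. Most of the 15 loci, those of Rala and Kbtbd2 among them, have a TEC gene that the rule selected through the knockouts. The 12 therefore cannot be set against the share over all regions. In the Btbd7 KO against wild type, 0 of these 15 were called in either direction, and 1.23% and 1.75% of all regions were. The region of Zfp143 averaged 5.49 CPM in wild type and 73.9, 51.1 and 60.7 CPM in clones 1 to 3, that of Rala 3.27 CPM and 22.9, 25.2 and 21.4 CPM, and that of Kbtbd2 0.608 CPM and 12.1, 8.71 and 9.75 CPM. Of 14 regions tested that are listed under the head-to-head members themselves, 5 were higher and 2 lower with a median of -0.00. Over all members 46 of 241 such regions were higher and 17 lower with a median of 0.07, and scaling that table by its own totals gave 24 higher and 98 lower.

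Members that overlapped opposite-strand exons included the gene with the clearest change after AA474408. 6430511E19Rik (chr7:92639949-92643783, plus strand) shares 241 bases with exons of Pcf11, which encodes a cleavage and transcription termination factor. It stood at 13.4, 13.4, 13.2 and 11.2 CPM in wild type, at 10.9, 12.4, 13.2 and 15.5 CPM in the Btbd7 KO and at 38.7–58.2 CPM with a median of 43.3 in the Zcchc8 KO. The Zcchc8 KO libraries all lay above the controls, with a log2 fold change of 1.81 ± 0.09 (SE, adjusted p = 2.08e-13). Pcf11 had a log2 fold change of 0.04, and the ratio of member to partner was 1.76 higher (exact permutation, adjusted p = 0.00837). Gm43737, at the mitochondrial import gene Mtx1, was the other member of this class that met the minimum in the controls and was higher, with a log2 fold change of 1.58 (adjusted p = 7.67e-08). The library kit keeps strand, but whether the counting used it is not given in the sources used here. If it did not, reads of a TEC gene and of the opposite-strand gene it overlaps cannot be told apart.

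Gm37206, the member of this class with the highest level, lies wholly within exon bases of Rbm4b on the other strand. It stood at 37.5, 30.4, 30.1 and 35.7 CPM in wild type and 30.7–49.1 CPM in the Zcchc8 KO, which overlap, with a log2 fold change of 0.24 (adjusted p = 0.0587). Its change passed the threshold without any 1 of 7 libraries, at 0.25 to 0.31: Btbd7 KO replicates 2 and 3, wild type replicates 1 and 4, clone 1 replicate 2, and clone 3 replicates 2 and 4. As a description, 6 members that reached the minimum only through the knockouts had log2 fold changes of 2.80 (9330162G02Rik at the ubiquitin ligase gene Ube3a), 2.73 (2310043P16Rik at Lsm14a), 2.47 (Gm10461 at the Src-family kinase gene Yes1), 2.46 (Gm43545 at Nudt9), 2.30 (Gm38391 at the lysyl hydroxylase gene Plod2) and 0.63 (Gm43857 at Usp33). Gm38391 stood at 6.63, 1.85, 4.11 and 2.58 CPM in wild type and 13.1–25.6 CPM in the Zcchc8 KO. 9330162G02Rik stood at 2.67, 0.463, 2.02 and 0.997 CPM and 8.26–14.3 CPM. Wild type replicate 1 was the highest wild type library in both, yet it too was below every Zcchc8 KO library.

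Only 6 members lay within an intron of an opposite-strand gene. Gm43182 (chr5:43782243-43784770, plus strand), at the iron-sensing F-box gene Fbxl5, stood at 0.585, 0.289, 0.449 and 1.17 CPM in wild type and at 5.35–13.2 CPM in the Zcchc8 KO. Gm37174 (chr1:121328092-121331149, plus strand), at Insig2, whose protein restrains sterol synthesis, stood at 0, 3.47, 3.81 and 2.76 CPM in wild type and at 6.63–13 CPM in the Zcchc8 KO. Both start less than 100 bases from a coding transcript start on the other strand, so they resemble the head-to-head members although they lie inside the gene body, and both were selected through the knockouts. The 4 members of this class that met the minimum in the controls had 0 calls and a median of 0.04. Among them, 4930466K18Rik in Mcm9, a helicase gene of DNA repair, and Gm43668 in Dnajc19 had log2 fold changes of 0.22 and -0.14, and that of 4930466K18Rik was 0.46 (adjusted p = 0.00885) without wild type replicate 1.

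The same relation to a coding start can be counted over all classes, as a choice made after the data were seen. There were 23 members that start within 1000 bases of the start of any coding transcript on the other strand, of which 18 were higher with a median log2 fold change of 2.03. The 5 without a call were Gm49599, Gm43362, 9530085L11Rik, Gm48062 and Gm34220. These counts include members that the rule selected through the knockouts, which had to be higher. The 18 therefore cannot be set against the 16.2% of all genes tested that were higher.

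TEC genes within introns of the same strand formed the bulk of the members, 66.7% of them against 45.5% of all TEC genes. They lay in 145 host genes, of which 17 held more than 1 and together contained 38 members. Per length, their level was a median 2.35 CPM per kilobase in wild type against 17.5 for their hosts, or 12.1% of the host, where the head-to-head members had 1.26 against 15.2, or 8.27%. Same-strand reads of such a gene cannot be told from unspliced host RNA in these counts. Of the 158 that met the minimum in the controls, 9.49% were higher and 5.06% lower, both below the 16.2% and 19.9% of all genes.

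A930004J17Rik (chr4:131878628-131883237, plus strand), in the splicing factor gene Srsf4, was among the intronic members with the highest levels. It stood at 35.4, 34.8, 32 and 31.3 CPM in wild type, at 30.4, 28, 29.2 and 26 CPM in the Btbd7 KO and at 24.9–36.7 CPM with a median of 30.5 in the Zcchc8 KO. The wild type and Zcchc8 KO libraries overlapped, with a log2 fold change of -0.13 (adjusted p = 0.204). At the minimum, Gm38147 in Ehmt1, C130083A15Rik in Chd2 and Gm42683 in Stard3nl had mean counts of 50.3, 50.2 and 50.05, and Gm43511, Gm42731 and Gm43890 fell just outside it with 49.3, 48.85 and 48.75.

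Gm47585 (chr13:63273600-63275911, plus strand), in the aminopeptidase gene 2010111I01Rik, set the lines apart in another way. It stood at 26.3, 21.5, 26.1 and 32 CPM in wild type and at 15.7, 16.9, 12.3 and 12.8 CPM in the Btbd7 KO. In clone 1 it stood at 25.9, 26.7, 19.7 and 20.9 CPM, in clone 2 at 37.7, 37.8, 51.8 and 46 CPM and in clone 3 at 46.2, 41.1, 48.4 and 43 CPM. Clone 1 overlapped wild type, clones 2 and 3 lay above it and the Btbd7 KO below it. The log2 fold change was 0.43 over the clones (adjusted p = 0.00304), with -0.18, 0.72 and 0.75 in clones 1 to 3, and -0.86 in the Btbd7 KO (adjusted p = 6.86e-05). The clones differed (adjusted p = 8.09e-06). The host had a log2 fold change of 0.38, and the ratio of Gm47585 to it moved by 0.06 (exact permutation, adjusted p = 0.839).

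The largest rise among intronic members that met the minimum in the controls was that of Gm19972 in the netrin receptor gene Unc5b. It stood at 8.45, 7.81, 5.91 and 4.11 CPM in wild type and at 8.29–15.7 CPM with a median of 11.5 in the Zcchc8 KO, which touch at wild type replicate 1, with a log2 fold change of 0.84 ± 0.16 (SE, adjusted p = 0.000193). Gm47087 in Maml2, which encodes a coactivator of Notch signalling, stood at 10.7, 9.72, 9.27 and 8.03 CPM in wild type, at 9.16, 9.89, 7.2 and 8.78 CPM in the Btbd7 KO and at 12.5–20.9 CPM in the Zcchc8 KO. Its Zcchc8 KO libraries were all above the controls, with a log2 fold change of 0.66 ± 0.12 (SE, adjusted p = 8.59e-05) and a ratio to Maml2 that was 1.06 higher (exact permutation, adjusted p = 0.00837).

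Of the 10 lower members, 8 lay in introns of the same strand, as did 158 of the 219 members that met the minimum in the controls. Gm38357 (chr3:51231917-51234380, plus strand), in the deadenylase-like gene Noct, stood at 12.3, 11.2, 12.2 and 9.79 CPM in wild type, at 9.1, 9.69, 11.3 and 8.87 CPM in the Btbd7 KO and at 5.02–11 CPM with a median of 7.02 in the Zcchc8 KO. Its log2 fold change was -0.68 ± 0.14 (SE, adjusted p = 0.000496). Noct had -0.65, and the ratio of the pair moved by -0.06. Gm45457 in the adaptor gene Sorbs2 stood at 25.6, 25.6, 20.9 and 22.2 CPM in wild type and at 12.6–22.9 CPM in the Zcchc8 KO, with a log2 fold change of -0.49 (adjusted p = 0.00091). The Zcchc8 KO and wild type ranges overlapped in both genes. The count of 8 lower intronic members was 2 without wild type replicate 4.

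Among the 158 intronic pairs whose member met the minimum in the controls, 11 ratios to the host were higher and 0 lower, with a median difference of 0.12. Over all 166 intronic pairs, which lie in 145 hosts, the median log2 fold change of the host was -0.12. The host was higher in 8 pairs and lower in 71, where a host with several members counts more than once. Of protein-coding genes at the same minimum, 11.1% were higher and 28.4% lower, with a median of -0.06. Pearson's r between member and host was 0.13 over the 166 pairs, which share libraries and, in part, hosts. Position within the host did not separate the calls in any plain way: a start within 5000 bases of a same-strand coding transcript start was found for 38.1% of the 21 higher, 37.5% of the 8 lower and 38.7% of the 137 other members.

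**Figure D5:**
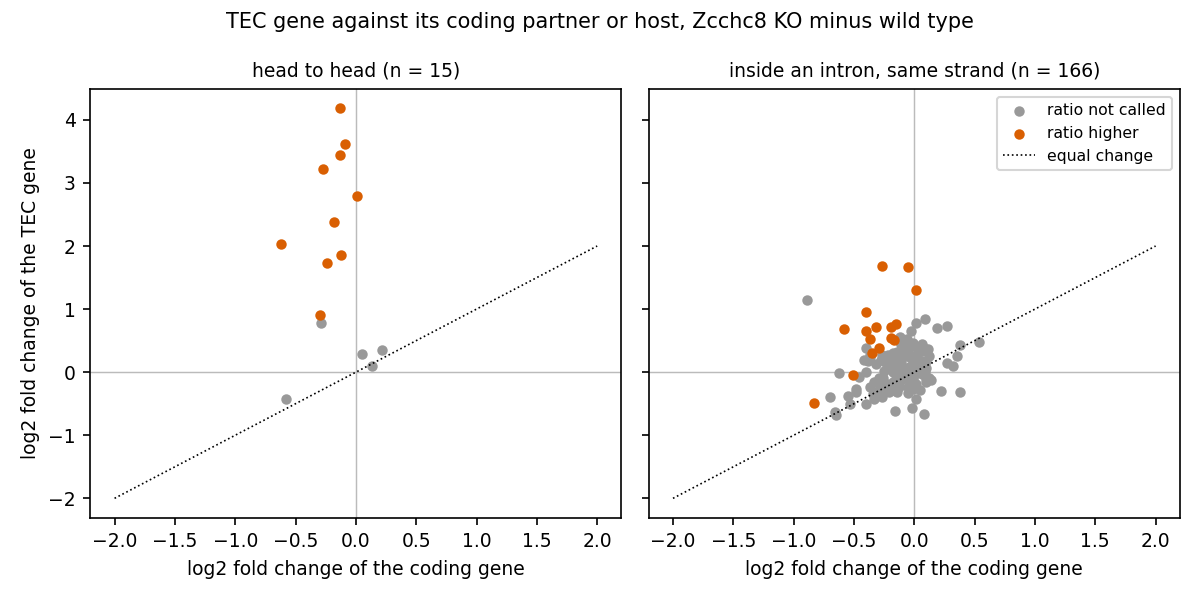
Log2 fold change of each member (vertical axis) against that of its coding host or partner (horizontal axis), both Zcchc8 KO mean of 3 clones minus wild type, for head-to-head pairs on the left and same-strand intronic pairs on the right; each point is 1 pair, orange where the ratio was called higher, and the dotted line marks equal change. Head-to-head members rise to 4.18 while their partners have a median of -0.13. Both panels include members selected through the Zcchc8 KO libraries, which had to be higher, so their colour is not a test result. Where the member met the minimum in the controls, 2 of 7 head-to-head and 11 of 158 same-strand intronic ratios were called higher.

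Several members in 1 host allow a comparison in which the host is held the same. Of the 17 hosts with more than 1 member, 10 had no member called, 7 had some called and some not, and 0 had all called. Of the 4 hosts with 3 members, Apbb2 had none called, at -0.12, 0.44 and 0.35 (C530043K16Rik, Gm43792 and Gm43343). Galnt7, a glycosyltransferase gene, held 3. Its member 4930412F12Rik begins 673 bases from the host start and stood at 1.63, 2.03, 3.14 and 3.05 CPM in wild type and 4.64–15.1 CPM in the Zcchc8 KO, a member selected through the knockouts. Gm45358 and Gm45534 in the same host had log2 fold changes of -0.15 and 0.27, and Galnt7 had -0.27. In Picalm, an endocytosis gene with a log2 fold change of -0.06, Gm45221 was higher at 0.52 (adjusted p = 0.0165), while Gm45223 and Gm45222 had 0.25 and -0.03. In the ubiquitin ligase gene Nedd4, with -0.01, Gm7265 was higher at 0.46 (adjusted p = 0.0406; 0.39 to 0.47 and not called without wild type replicate 1, 2 or 3, clone 1 replicate 4, clone 2 replicate 1, or clone 3 replicate 1 or 3), while Gm36936 and A530064N14Rik had -0.14 and -0.10. Whether members of 1 host differ from each other was not tested.

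In the Btbd7 KO against wild type the members were lower more than higher. There were 20 lower (8.03%) and 1 higher (0.402%), where 8% and 7.73% of all genes were called. The median log2 fold change was -0.22 over the members and 0.02 over all genes. Same-strand intronic members, which are 66.7% of all members, made up 14 of the 20 lower and the 1 higher, with a median of -0.26. The count of 20 was 6 without Btbd7 KO replicate 2, 13 without replicate 3 and 8 without replicate 4. Among the called members, the largest falls were in Gm45358 in Galnt7, at 4.1, 5.79, 4.49 and 9.56 CPM in wild type and 2.23, 2.85, 3.35 and 2.37 CPM in the Btbd7 KO, and Gm36638 in Pik3r1, the gene for a regulatory subunit of phosphoinositide 3-kinase, at 13.6, 6.71, 5.38 and 5.57 CPM and 3.8, 4.38, 3.85 and 3.13 CPM. Neither gene's libraries overlapped between the lines. Their log2 fold changes were -1.17 ± 0.28 (SE, adjusted p = 0.004) and -1.04 ± 0.27 (SE, adjusted p = 0.00927). Without wild type replicate 1, the highest library of Gm36638, its change was -0.63. The 1 higher member was Gm38372 in Pcmtd1, at 9.95, 11.9, 12.6 and 14.1 CPM in wild type and 20, 18, 18.5 and 18.3 CPM in the Btbd7 KO, with a log2 fold change of 0.62 (adjusted p = 0.00412).

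Against the Btbd7 KO in place of wild type, 58 of the 219 that met the minimum in the controls were higher in the Zcchc8 KO and 5 lower, where 18.8% and 22.2% of all genes were. Both contrasts use the same Zcchc8 KO libraries, and the lower level of members in the Btbd7 KO enters this one. The median log2 fold change was 0.29 over the 219.

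The member with the highest level of all was Gm37352 (chr8:84200869-84203049, plus strand), which overlaps no coding gene and ends 5469 bases before the start of Mir23a, the first of the microRNA genes Mir23a, Mir27a and Mir24-2. The mature microRNAs of that cluster, as RefSeq lists them on GRCm38.p6 with bases 2 to 8, the seed, in capitals, show what lies downstream of it:
mmu-miR-23a-3p, chr8:84208563-84208583: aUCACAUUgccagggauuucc
mmu-miR-27a-3p, chr8:84208727-84208747: uUCACAGUggcuaaguuccgc
mmu-miR-24-3p, chr8:84208875-84208896: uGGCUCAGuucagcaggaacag
They were not measured in these libraries. Gm37352 stood at 94.1, 89, 96.3 and 91.3 CPM in wild type and at 80.5, 75.1, 75.7 and 76.7 CPM in the Btbd7 KO. In the Zcchc8 KO it stood at 171, 184, 176 and 188 CPM in clone 1, at 171, 140, 153 and 128 CPM in clone 2 and at 233, 188, 232 and 228 CPM in clone 3. All Zcchc8 KO libraries were above wild type, and all Btbd7 KO libraries were below it. The log2 fold change was 0.96 ± 0.07 (SE, adjusted p = 2.68e-11), with 0.95, 0.67 and 1.25 in clones 1 to 3, which differed (adjusted p = 5.61e-06), and -0.27 in the Btbd7 KO (adjusted p = 0.0183), where it was -0.25 (adjusted p = 0.0536) without Btbd7 KO replicate 2.

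Members that contain a microRNA gene, or have one within 10000 bases after their end on the same strand, had these values, and their differences from Gm37352 were not tested. Gm37238, which ends 4372 bases before the let-7 genes Mirlet7a-1, Mirlet7f-1 and Mirlet7d, stood at 20.7, 19.8, 20.4 and 21.8 CPM in wild type and 14.2–26.2 CPM in the Zcchc8 KO, with a log2 fold change of -0.04 (adjusted p = 0.81). Gm38020, within the noncoding gene Ftx on the X chromosome and 3272 bases before Mir374b and Mir421, had -0.22 (adjusted p = 0.17). Gm37296 contains Mir30d and had 0.17 (adjusted p = 0.365), and Gm37795 contains Mir34a and had 0.52 (adjusted p = 0.0702), which was 0.84 (adjusted p = 0.00557) without wild type replicate 2 and 0.58 (adjusted p = 0.0495) without clone 1 replicate 1. C130023A14Rik contains Mir125b-2 and was higher, with 4.23, 5.73, 5.16 and 5.92 CPM in wild type, 5.77–11.3 CPM in the Zcchc8 KO and a log2 fold change of 0.60 (adjusted p = 0.0154). Its wild type and knockout ranges touched.

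Among the other members with no coding relation, 11 of 27 were higher and 0 lower with a median of 0.36. That count includes members selected through the knockouts, which had to be higher. Against 16.2% of all genes tested, 5 of the 21 that met the minimum in the controls were higher, with a median of 0.22. Besides Gm37352 and C130023A14Rik these were Gm37534, which ends 11812 bases before Mir181a-1, at 1.73 (adjusted p = 1.75e-07), Gm37607, at 1.05 (adjusted p = 0.0161; 0.67 without wild type replicate 1), and Gm37472, at 0.60 (adjusted p = 0.00676). The rise of Gm37534 lay mainly in clones 2 and 3, whose libraries were all above wild type, while its clone 1 libraries overlapped wild type. Gm42547, another of the highest in this class, had 0.13 (adjusted p = 0.397), and 0.30 (adjusted p = 0.0253) without wild type replicate 1. Selected through the knockouts, 4930402H05Rik (chr6:91207216-91210044, minus strand) stood at 0, 1.39, 0.748 and 0.235 CPM in wild type, at 0.603, 1.39, 0.744 and 0.76 CPM in the Btbd7 KO and at 5.76–15.4 CPM in the Zcchc8 KO. Gm38140 stood at 2.41, 1.27, 1.5 and 0.352 CPM in wild type and at 8.91–23.2 CPM in the Zcchc8 KO. In both, every Zcchc8 KO library was above every control.

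TEC genes after the end of a coding gene showed 4 higher and 1 lower of 12. The highest 3 were Gm47572 after AU041133, 5430430B14Rik after the translation repressor gene Eif4ebp1, and Gm44950 after Arpin. Gm47572 stood at 14.4, 12.2, 10.6 and 8.8 CPM in wild type and 13.5–21.8 CPM in the Zcchc8 KO, with a log2 fold change of 0.65 (adjusted p = 6.58e-05), and AU041133 had 1.20. 5430430B14Rik stood at 12.4, 10.8, 11.4 and 12.8 CPM in wild type and at 7.9, 8.23, 9.18 and 7.18 CPM in the Btbd7 KO, all below wild type. It had a log2 fold change of 0.37 (adjusted p = 0.022), with 0.86, -0.20 and 0.44 in clones 1 to 3, which differed (adjusted p = 2.73e-05), and of -0.55 in the Btbd7 KO (adjusted p = 0.0154). The call over the clones was lost without wild type replicate 2 (0.33, adjusted p = 0.0698) or 3 (0.36, adjusted p = 0.0528), and that in the Btbd7 KO without Btbd7 KO replicate 4 (-0.50, adjusted p = 0.0565). Gm44950 had 0.40 (adjusted p = 0.0302), lost without wild type replicate 2 (0.30, adjusted p = 0.132) or 3 (0.36, adjusted p = 0.0815). The 1 lower was Gm43820 after Spry1, an inhibitor of receptor tyrosine kinase signalling, at 7.74, 5.5, 5.38 and 5.34 CPM in wild type and 1.59–5.76 CPM in the Zcchc8 KO, with -0.78 (adjusted p = 0.00512). In the Btbd7 KO it was lower as well, at -0.87 (adjusted p = 0.0272), a call lost without Btbd7 KO replicate 1, 2 or 3 or wild type replicate 1 (-0.72 to -0.90). Across these 12 pairs Pearson's r between member and upstream gene was 0.54.

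Members that overlap coding exons on their own strand share reads with them, and their values are uncertain for that reason. Gm49759, within the pyruvate kinase gene Pkm, stood at 88.4, 79.6, 88.4 and 95.5 CPM in wild type and had a log2 fold change of 0.07 (adjusted p = 0.437). Gm42603, at the annexin gene Anxa3, had -0.14 (adjusted p = 0.217), with -0.11, -0.46 and 0.16 in clones 1 to 3, which differed (adjusted p = 0.000228). Anxa3 itself had -0.48. Gm45779, at Eps15l1, stood at 14.6, 16.4, 15.3 and 15 CPM in wild type and 16.5–21.2 CPM in the Zcchc8 KO, just above it, with 0.31 (adjusted p = 0.0205). Of the 11 members of this class, 2 were higher and 1 lower.

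The 3 Zcchc8 KO clones differed from each other in 21 members (8.43%), against 28.5% of all genes. Without wild type replicate 1 the count was 36. Besides those above, Gm43182 had log2 fold changes of 4.30, 3.30 and 3.62 in clones 1 to 3 (adjusted p = 0.00544), and 4930402H05Rik had 4.49, 3.39 and 4.23 (adjusted p = 0.033).

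Other biotypes held to the same minimum give a scale for the median of 0.16 of the 249 TEC members. The 27 sense intronic genes had 8 higher and 5 lower with a median log2 fold change of -0.01, and the 118 lincRNAs had 61 and 9 with 0.43. The 79 antisense genes had 60 higher and 1 lower with a median of 1.21, and 9868 protein-coding genes had 1091 and 2799 with -0.06. The same selection through the knockout libraries applies to each, and no test was made between biotypes. Over all 1017 TEC genes tested, 208 were higher and 31 lower with a median of 0.25.

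The machinery that degrades or terminates such RNAs was read from 2 lists. Of 24 tested genes of the NEXT complex, the exosome and their cofactors, 1 was higher and 10 lower, with a median log2 fold change of -0.10. Over all genes, 16.2% were higher and 19.9% lower, and the lower share was larger among protein-coding genes with a mean of at least 50 counts. The 10 include Zcchc8 itself, the edited gene, at -0.62. The higher one was Srrt, which encodes the cap-complex partner ARS2, at 0.49 (adjusted p = 7.8e-09). The helicase gene Mtrex had -0.27 (adjusted p = 2.89e-05), Rbm7 -0.20 (adjusted p = 0.0179) and the nuclease gene Dis3 -0.31 (adjusted p = 3.64e-05). Of 29 genes of the Integrator complex and of termination, 2 were higher and 5 lower with a median of -0.04, near the share over all genes for the lower genes.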

How the data were processed

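Total RNA of SIMS cell lines was sequenced as stranded libraries, per the labels' protocols. The authors deposited raw counts per gene and per PROMPT region. Per the submitters' processing notes they used FastQC and STAR 2.7.3a; the counting program, its strand setting, the build and the annotation are not given in the sources used here. Of 55471 gene IDs, 54573 matched GENCODE M21 with version and 55230 without. Positions are those of GENCODE M21 on GRCm38, 1-based.

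The members and gene lists were chosen with earlier results of these data known, and a member that met several position classes took the first of head to head, exon overlap, intron and downstream. Library sizes were scaled by TMM over the whole table, genes were kept by filterByExpr (15297), and all 5 groups were fitted together with edgeR 4.0.16 (R 4.3.3) by its quasi-likelihood test, with Benjamini-Hochberg adjustment over all genes and a threshold of 0.05. The Zcchc8 KO value is the mean of 3 clone coefficients minus wild type. PROMPT counts (17617 regions, 19 libraries) used the library sizes and TMM factors of the gene table. Ratios were log2((member + 0.5)/(partner + 0.5)) of counts, tested over 1820 splits. The scripts were tested on simulated data.

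Members named by rule were the 3 with the highest mean CPM of each class, the 5 most raised and 5 most lowered of those called in every clone, the 2 most changed in the Btbd7 KO and those next to the minimum, of which 1 member is not reported here. Members of the head-to-head class, of shared hosts and near microRNAs, and the higher and lower examples beyond that rule, were named after their values were seen. Alternatives included DESeq2 1.42.0, other scalings and filters, and each library left out. Genome windows around the TEC starts were not used here; RefSeq windows and GENCODE transcripts took their place.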

Additional observations from a re-analysis of the deposited data

Results flagged for a closer look

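Among 215 groups of 4 libraries, in 41 members and 2 class sums, 14 held a library far from the other 3 (6.51%), and chance gives about 1 in 20. Wild type replicate 1 was the library in 4 of them: Gm49599 at 16.9 CPM against 14.1–14.5 in the other 3, Gm36638 at 13.6 against 5.38–6.71, A730091E23Rik at 9.49 against 3.53–4.41, and the summed head-to-head members at 81.4 against 57.4–59.9. Wild type replicate 4 had 6430511E19Rik at 11.2 CPM against 13.2–13.4. In clone 1, replicate 1 had 1700001G17Rik at 13.4 CPM against 11.1–11.4. The other 8 were all in clone 3. Replicate 2 was low for Gm43668 at 6.03 CPM against 12.1–12.5, Gm37352 at 188 against 228–233, Gm36638 at 4.77 against 7.39–7.69 and 4933417C20Rik at 10 against 14.6–14.9. Replicate 3 was high for 4930466K18Rik at 23.3 CPM against 15.4–16.6 and Gm38020 at 30.5 against 26.5–26.5, replicate 4 was low for C130083A15Rik at 2.79 against 3.63–3.7, and replicate 1 was high for Gm42683 at 5.13 against 3.64–3.82.

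The Zcchc8 KO clones differed in 7 named members by the test with 2 degrees of freedom in edgeR. The adjusted p was 2.73e-05 for 5430430B14Rik, 0.000228 for Gm42603, 0.002 for AA474408, 8.09e-06 for Gm47585, 5.61e-06 for Gm37352, 0.033 for 4930402H05Rik and 0.00544 for Gm43182. Clone 2 was the lowest of the 3 in all but Gm47585, where clone 1 was. Of these 7, AA474408, 4930402H05Rik and Gm43182 were far above wild type in every clone.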

How the results depend on the processing

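Counts of called members moved most with the rules that define them. Except where a minimum over the control libraries is named, the counts here and below include members selected through the knockouts. Those members had to be higher in the Zcchc8 KO, so the higher counts cannot be set against the share over all genes. An absolute log2 fold change over 1 as well as the adjusted p left 30 higher and 0 lower members for the mean of the clones against wild type, 30 and 1 in clone 1, 30 and 1 in clone 2, 31 and 0 in clone 3, 0 and 3 in the Btbd7 KO, and 38 and 0 against the Btbd7 KO, with 4 and 0 of the same-strand intronic members. A mean of at least 100 counts left 22 higher and 5 lower for the mean of the clones, 18 and 6, 24 and 5, and 23 and 1 in clones 1 to 3, 10 lower in the Btbd7 KO, 34 higher and 3 lower against the Btbd7 KO, and 10 whose clones differed. A mean of at least 20 counts gave 127 higher and 22 lower for the mean of the clones, 111 and 22, 114 and 13, and 121 and 8 in clones 1 to 3, 2 and 32 in the Btbd7 KO, and 167 higher against the Btbd7 KO. Requiring 50 counts over the 8 control libraries, which 247 TEC genes meet whether or not they reach 50 over all 20, gave 31 higher for the mean of the clones and 24, 29 and 30 in clones 1 to 3, with a median log2 fold change of 0.08. Fits on only the groups compared gave 4 lower for the mean of the clones, 5, 4 and 0 in clones 1 to 3, 37 higher in clone 3, 6 lower in the Btbd7 KO, 44 whose clones differed and 3 lower intronic members. Taking each cell line as 1 replicate left 28 higher and 0 lower members, and 3 and 0 intronic ones.

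Without TMM factors the members had 4 lower for the mean of the clones, 1 in clone 3, 3 against the Btbd7 KO and 3 lower intronic ones, with a median of 0.23. TMM factors taken after the filter, chosen after seeing the data, gave 5 lower intronic members. Over all genes the split was 2474 higher and 3046 lower with a median of -0.01, and it was 3229 and 2005 with 0.07 without TMM factors, 3096 and 2645 with 0.03 by DESeq2, and 2692 and 2715 with 0.02 with TMM after the filter. In the Btbd7 KO, 3 were higher without the filter and 2 in the other deposited gene table, where 36 had clones that differed. Head-to-head taken from any opposite-strand coding transcript start within 1000 bases, also chosen after seeing the data, gave 18 higher. PROMPT regions scaled by their own totals gave 24 higher and 98 lower for the members and 1 lower for the head-to-head partners. A start window of 500 bases held AATAAA in 21.9%, GGTAAG in 8.1% and TATAAA in 20.6% of members.

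Leaving out 1 library at a time gave 51–72 higher and 3–12 lower for the mean of the clones, 43–62 and 6–13 in clone 1, 47–66 and 4–10 in clone 2, 44–69 and 0–4 in clone 3, 1–4 and 6–29 in the Btbd7 KO, 70–112 and 3–7 against the Btbd7 KO, and 15–36 whose clones differed. It gave 10–13 higher and 0–1 lower head-to-head members, 18–23 and 2–11 same-strand intronic ones, a median of 0.12–0.23, 32–43 higher ratios to the partner, and 38–49 higher and 10–17 lower PROMPT regions of members with 11–12 higher ones of head-to-head partners. Wild type replicate 2 raised the count of higher members in the Btbd7 KO to 4 when left out, and wild type replicate 3 gave the 1 lower head-to-head member. Of single members, C130083A15Rik changed sign with log2 fold changes of 0.02 by DESeq2, 0.01 with TMM after the filter, 0.07 without TMM and 0.01 on only the groups compared, and ran from -0.06 to 0.13 across left-out libraries. The Zcchc8 KO change also crossed 0 in Gm36638 (-0.42 to 0.13), Gm38147 (-0.16 to 0.20), Gm42683 (-0.21 to 0.14) and Gm45358 (-0.29 to 0.19). The Btbd7 KO change crossed 0 in C130083A15Rik (-0.32 to 0.20), 6430511E19Rik (-0.08 to 0.10), Gm10209 (-0.52 to 0.17), Gm37174 (-0.25 to 0.39), Gm37206 (-0.09 to 0.05), Gm42547 (-0.03 to 0.25), Gm44950 (-0.15 to 0.09) and Gm49599 (-0.22 to 0.02). Without the filter, 5430430B14Rik, Gm44950 and Gm45779 missed the threshold. In all, 1605 of 1672 alternative values of the 31 named members kept direction and side of the threshold, and the cause of the changes was not tested.

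The replicate numbers do not pair the libraries: of 40 pairs with the same number in 2 lines, 2 had a correlation of deviations over 0.1, and 1 of 20 libraries was closest to its own number. With the replicate block the mean of the clones had 62 higher and 10 lower, the Btbd7 KO 1 and 19, and the comparison with the Btbd7 KO 91 and 5. Low counts limit single members: 50 counts over libraries of this depth is a few CPM.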
